A study of Mus musculus with 22 samples.

Results

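Common-gamma cytokine receptors and the SOCS proteins that damp them were followed as 10 genes: the receptor chains Il2ra, Il2rb, Il2rg, Il7r, Il4ra and Il21r, and the feedback inhibitors Cish, Socs1, Socs2 and Socs3. They were taken as a fixed list of symbols, matched by gene identifier among 46603 genes in the deposited count table. All 10 were found, and all 10 were among the 21183 genes that passed the filter on low counts. RNA was sequenced from CD8+ T cells in 22 libraries of 8 mice, which the labels place in 3 experiments numbered 1, 3 and 5. Tcaim, the gene altered in these mice, was conditionally knocked in (KI, 3 mice), conditionally knocked out (KO, 2 mice) or left unaltered (wt, 3 mice). KI and wt mice belong to the line Tcaim KI Cd4Cre with the genotype labels hocre and wtcre, so the labels of both name Cre. KO mice belong to the line Tcaim KO Cd4Cre with the label hocre. The line names give a Cd4-driven Cre, which acts in developing T cells before the CD4 and CD8 lineages part, so the alteration is not limited to CD8+ cells. Unaltered mice of the KO line, and KO cells at 24 h, were not analysed here.

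The starting cells were naive, drawn from spleen and lymph nodes and enriched with magnets by depleting other cell types. RNA was taken at once, or after 24 h (KI and wt) and 48 h (all 3 genotypes) on 2 µg/ml of plate-bound anti-CD3 with 1 µg/ml of soluble anti-CD28, which trigger the antigen receptor and a costimulatory receptor. No cytokine is named in the labels as an addition. KI and wt mice were male in experiments 1 and 3 and female in experiment 5, and both KO mice, in experiments 1 and 5, were female, so that line and genotype cannot be told apart in any comparison of KO with wt, nor sex as well in experiment 1. Ages are not given in the sources used here. Each replicate is a mouse, each mouse gave 1 library at each of its times, and replicates below are named by experiment.

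The common gamma chain, encoded by Il2rg, is a shared signalling subunit of the receptors for IL-2, IL-4, IL-7, IL-9, IL-15 and IL-21, and each cytokine adds chains of its own. The kinase JAK3 binds the gamma chain and JAK1 the partner chain, and together they activate STAT factors, mainly STAT5 for IL-2, IL-7 and IL-15. Naive CD8+ T cells live on IL-7, while activated cells gain the high-affinity IL-2 receptor. CIS (Cish) and SOCS1 to SOCS3 are induced by STATs and act back on receptors and JAKs, which closes a negative feedback loop.

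For 8 of the 10 genes RefSeq gives a sequence just before the transcription start (build GRCm38.p6). Il2rb and Socs2 had none in the table used. STAT5 dimers bind the palindrome TTCNNNGAA, which was searched in the 250 bases before each start, where it reads alike on both strands. It was present in 7.02% of the 32851 RefSeq windows of that length, and in 2 of the 8 member windows, those of Il7r and Socs3. A longer form with 1 more base in the gap, bound by STAT6, was present in 5.85% of windows and in 0 of the 8. The windows of Il7r (chr15:9529877-9530126, minus strand) and Socs3 (chr11:117969367-117969616, minus strand) are shown because they hold the match. That of Il2rg (chrX:101268256-101268505, minus strand) is shown because this gene differed between KI and wt. Each is written 5′ to 3′, ending at the base before the start, with the match in capitals.
Il7r: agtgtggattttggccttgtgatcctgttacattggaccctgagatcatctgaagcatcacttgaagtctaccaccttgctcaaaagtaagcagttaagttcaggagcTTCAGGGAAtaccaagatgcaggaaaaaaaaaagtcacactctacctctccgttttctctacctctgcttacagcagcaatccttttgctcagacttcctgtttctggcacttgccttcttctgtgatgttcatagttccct
Socs3: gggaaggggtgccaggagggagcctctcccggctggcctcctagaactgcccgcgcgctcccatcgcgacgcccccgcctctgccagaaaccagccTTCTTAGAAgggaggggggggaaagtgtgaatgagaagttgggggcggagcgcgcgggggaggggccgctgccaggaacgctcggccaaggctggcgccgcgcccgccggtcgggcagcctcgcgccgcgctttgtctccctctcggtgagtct
Il2rg: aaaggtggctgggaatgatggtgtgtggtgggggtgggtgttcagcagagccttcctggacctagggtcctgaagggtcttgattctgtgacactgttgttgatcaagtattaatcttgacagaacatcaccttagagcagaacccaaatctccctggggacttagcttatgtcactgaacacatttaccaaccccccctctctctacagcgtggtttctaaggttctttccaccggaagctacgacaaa
The match began 142 bases before the start in Il7r and 154 bases before it in Socs3. A match of letters is a description of these windows, and no binding was measured in these libraries. Il7r and Socs3 were called lower than naive by edgeR in wt cells at 24 h and 48 h. So were Il4ra and Il21r at 24 h and Il2rg at 48 h, whose windows hold no match. The starts are those of RefSeq. On GRCm38 the windows of Il7r, Socs3 and Cish lie inside the longer spans deposited for these genes, and that of Il4ra lies partly inside. For Il7r, Socs3 and Cish the bases just before those longer spans were therefore not searched, so the absence of a match in Cish holds for the RefSeq window alone. The Il2rg window lies in an intron of a longer gene model, Gm20489, described with Il2rg below.

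Total counts per library ran from 62551905 to 93489115, so that even Socs2, the lowest of the 10 genes, had 15 to 1920 counts in KI and wt libraries. Levels are in CPM (counts scaled to a fixed library total, after TMM adjustment for composition), and levels are compared between genes only in the deposited FPKM, which are also divided by gene length. Tcaim was at 138 to 260 CPM in the 9 KI libraries and at 8.38 to 15.2 CPM in the 9 wt libraries. In the libraries labelled KO it was at 14.9 and 19.6 CPM naive, then at 11.7 and 5.99 CPM at 48 h, not clearly below wt, so these libraries are called by their label throughout. CD8 T cell markers (Cd3e, Cd3g, Cd8a and Cd8b1, none of them at 0 in any library) summed to 1691 to 3862 CPM. The KO library of experiment 1 stood apart in the naive state with a summed B cell marker level of 940 CPM, against 92.3 to 324 CPM in the other 7 naive libraries, and with Cd4 at 184 CPM. The same mouse also stood apart at 48 h, at 92.0 on the second principal component, with the next library at 40.3. Summed CD4 T cell markers (Cd4 and Zbtb7b) at 48 h were 19.7 and 188 CPM in the 2 KO-labelled libraries. They reached at most 59.6 CPM in KI and 48.6 CPM in wt libraries. The part of these levels in the KO values of the 10 genes was not tested. In bulk RNA, fewer cells of a type and less RNA per cell cannot be told apart.

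**Figure D1:**
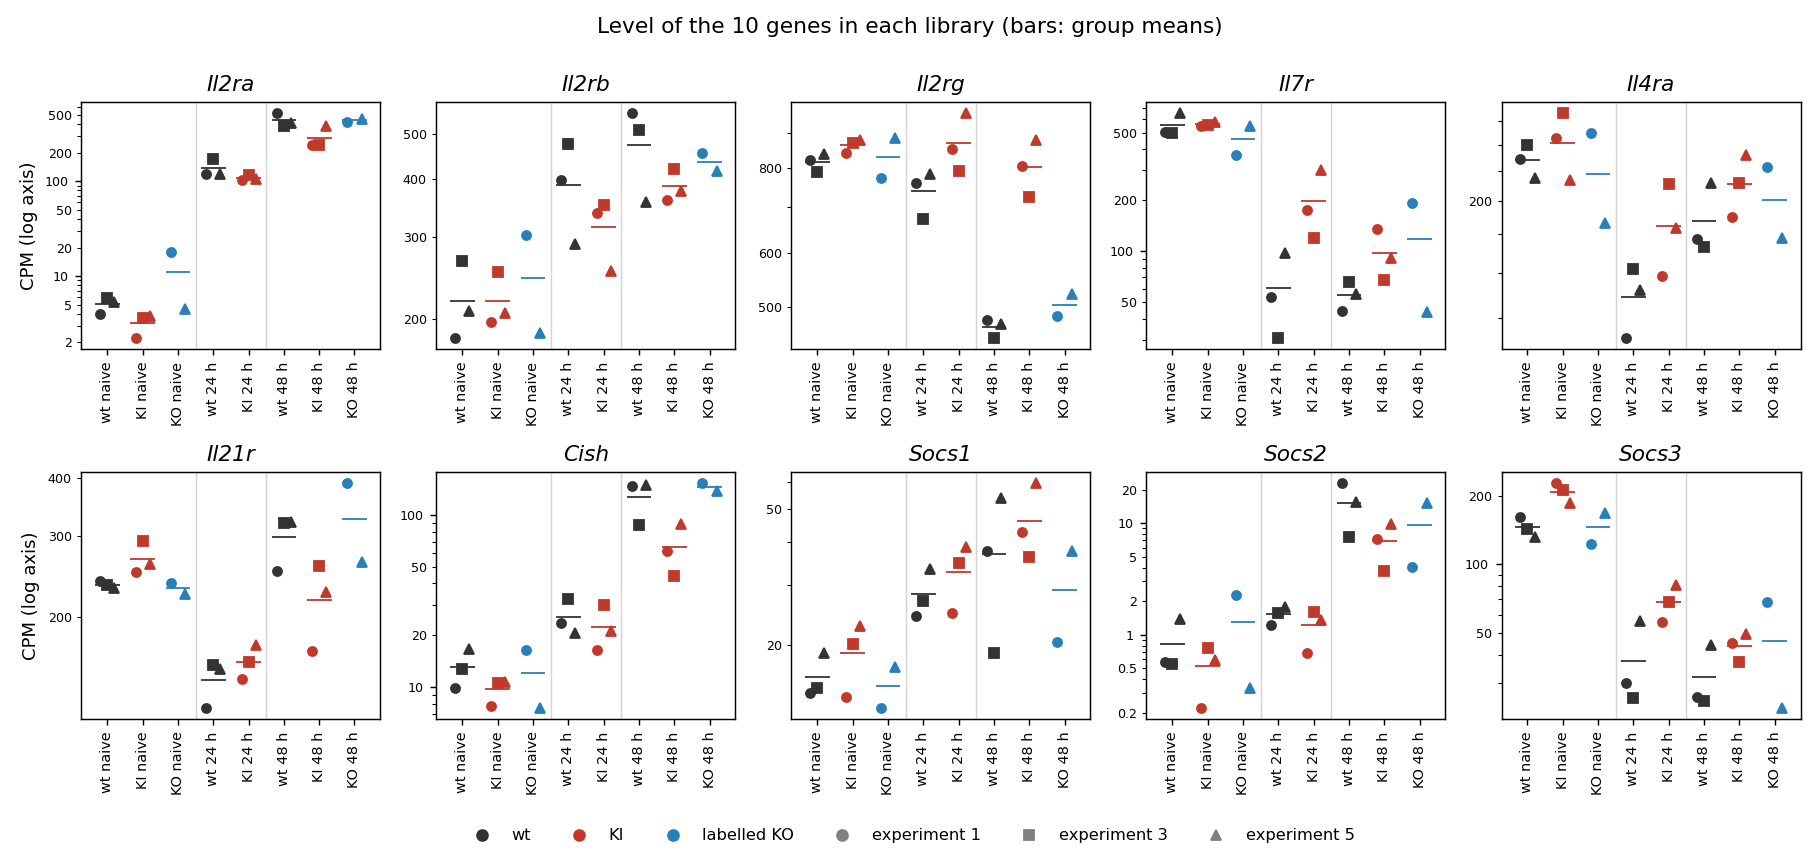
Level of each gene in each library, in CPM on a log axis whose range differs between panels, with a short bar for the mean of each group and a symbol for the experiment. Il2ra, Cish and Socs2 were highest at 48 h in all genotypes, Il7r and Socs3 were highest in naive cells, and Il2rg was low at 48 h in wt and KO-labelled libraries but not in KI libraries.

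With activation the 10 genes did not all move in the same direction. In wt cells at 24 h, 4 were called higher than naive and 4 lower by edgeR's quasi-likelihood test at an adjusted p under 0.05. At 48 h, 5 were higher and 3 lower. Activation moved much of the transcriptome: of all genes tested, 26.3% were called higher and 22% lower at 24 h, and 29.6% higher and 26.8% lower at 48 h. The median log2 fold change of the 10 genes was 0.33 at 24 h and 0.73 at 48 h, beside -0.05 and -0.04 over all genes tested. Between 24 h and 48 h, 4 of the 10 rose and 1 fell, where 4.06% of all genes rose and 3.38% fell. In KI cells 2 genes rose and 4 fell at 24 h (all genes: 22.9% and 15.8%), and 5 rose and 2 fell at 48 h (26.6% and 22.1%). From 24 h to 48 h 3 rose and 0 fell in KI cells (1.72% and 0.954%). In KO-labelled cells 5 rose and 3 fell between the naive state and 48 h (23.7% and 20.4%).

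Markers of several other cell types, though not of all, fell in the same interval. Of all genes tested, 29.6% were called higher and 26.8% lower in wt cells at 48 h. In wt cells at 48 h 4 of 4 B cell markers were called lower than naive by edgeR, and their summed level was 27.3 to 94.4 CPM against 192 to 324 CPM. Of 4 myeloid markers 3 were lower, with sums of 20.2 to 31.6 CPM against 98.2 to 221 CPM. The NK receptor genes Ncr1 and Klrb1c were lower while Eomes was higher, and both erythroid markers tested were lower. Of 2 CD4 T cell markers 0 were called, and of 2 regulatory T cell markers Ikzf4 was higher and Foxp3 lower. The CD8 T cell markers were also lower, 4 of 4, with sums of 1751 to 2255 CPM against 2990 to 3632 CPM. The part of these shifts in the changes of the 10 genes with activation was not tested.

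Il2ra (chr2:11642807-11693193, plus strand) encodes the alpha chain (CD25), which turns the intermediate-affinity IL-2 receptor into the high-affinity one. It was at 4.02, 5.84 and 5.34 CPM in naive wt libraries (experiments 1, 3 and 5), 118, 172 and 120 CPM at 24 h, and 520, 385 and 414 CPM at 48 h. No library of one time overlapped another time. The gain from naive was 27.0-fold at 24 h (log2 4.76, SE 0.38, edgeR adjusted p = 1.8e-08) and 86.8-fold at 48 h (log2 6.44, SE 0.41, edgeR adjusted p = 6.2e-10), with a further log2 rise of 1.68 between these times (edgeR adjusted p = 0.0049, or 0.14 and 0.064 without the wt mouse of experiment 1 or 5). KI libraries were at 2.24, 3.64 and 3.83 CPM naive, 102, 117 and 105 CPM at 24 h, and 242, 242 and 382 CPM at 48 h. All 3 KI libraries lay below all 3 wt libraries at each of the 3 times. The differences on the log2 scale were -0.64 naive, -0.34 at 24 h and -0.61 at 48 h, and none passed the test (edgeR adjusted p = 1, 0.80 and 0.35). The rise from naive to 48 h in KI cells was log2 6.48 (edgeR adjusted p = 1e-09), and the difference of the 2 rises was 0.04 with an SE of 0.47. In KO-labelled cells Il2ra was at 17.8 and 4.51 CPM naive, then at 425 and 453 CPM at 48 h, where both lay within the wt range. The high naive value belonged to the library with the high B cell marker level, and the part of that level in it was not tested.

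Il2rb (chr15:78479256-78495271, minus strand) encodes the beta chain shared by the IL-2 and IL-15 receptors. In wt libraries it was at 182, 267 and 208 CPM naive, 398, 478 and 290 CPM at 24 h, and 555, 510 and 357 CPM at 48 h. It rose by log2 0.83 at 24 h (SE 0.21, edgeR adjusted p = 0.0039, or 0.059 without the wt mouse of experiment 1) and by 1.11 at 48 h (edgeR adjusted p = 0.00026), a far smaller gain than that of Il2ra. The level in KI libraries was 197, 253 and 206 CPM naive, 339, 352 and 254 CPM at 24 h, and 361, 421 and 377 CPM at 48 h. The KI rise passed the test at 48 h (log2 0.82, edgeR adjusted p = 0.0041). At 24 h it was 0.53 with an edgeR adjusted p of 0.059, which became 0.014 with experiment and 0.017 with mouse as a block. KI and wt overlapped at all 3 times, and the differences were 0.00, -0.30 and -0.29 on the log2 scale with SEs of 0.21. KO-labelled libraries were at 303 and 187 CPM naive, then 456 and 417 CPM at 48 h.

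Il2rg, the shared gamma chain, was the 1 member called between KI and wt cells by edgeR. Naive libraries were close together, at 821, 787 and 837 CPM in wt and 841, 868 and 879 CPM in KI cells. At 24 h wt was at 760, 673 and 782 CPM and KI at 852, 791 and 961 CPM. At 48 h wt had fallen to 478, 450 and 472 CPM while KI stood at 805, 725 and 877 CPM, with a wide gap between the groups. Both KO-labelled libraries ended near the wt level, going from 773 and 885 CPM naive to 484 and 522 CPM at 48 h. KI exceeded wt 1.72-fold at 48 h (log2 0.78, SE 0.10, edgeR adjusted p = 0.00047), a call made for 1 of the 10 genes and for 4.2% of all genes tested. The within-experiment differences at 48 h were 0.75, 0.69 and 0.89 on the log2 scale for experiments 1, 3 and 5, experiments 1 and 3 using male and experiment 5 female mice. With experiment as a block the difference was 0.78 (edgeR adjusted p = 0.00013), and it was called in 13 of 13 alternative settings, with values from 0.70 to 0.85.

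The fall of Il2rg in wt cells between the naive state and 48 h was -0.80 on the log2 scale (SE 0.10, edgeR adjusted p = 3.2e-06), and -0.66 of it lay between 24 h and 48 h (edgeR adjusted p = 0.0009, or 0.051 without the wt mouse of experiment 1). In KO-labelled cells the fall was -0.72 (edgeR adjusted p = 0.00017, or 0.11 when these 2 groups were fitted alone). In KI cells the change was -0.11 (SE 0.10, edgeR adjusted p = 0.42). Upper-quartile scaling moved the median of all genes to -0.20 in that KI comparison, and Il2rg was then called lower by -0.29. A direct test of whether the response differed gave 0.70 for KI against wt (SE 0.15, edgeR adjusted p = 0.043), in 1 of the 10 genes and 0.387% of all genes. That call was kept in 7 of 14 alternative settings. It was lost without any 1 of the 6 KI or wt mice, with edgeR adjusted p between 0.095 and 0.49, and without the filter on low counts (0.10), while the value stayed between 0.65 and 0.77.

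The exons of Il2rg (chrX:101264378-101268255) overlap those of Gm20489 (chrX:101261405-101269023), a gene model on the same strand, which was singled out after its values were seen. Its count was 60.9% to 67.9% of that of Il2rg, and it differed between KI and wt at 48 h by 0.79 (SE 0.10, edgeR adjusted p = 0.00034). Reads could have been split between both models, so the level of Il2rg is uncertain, while the difference was 0.79 when both counts were summed (edgeR adjusted p = 0.00044). Beside this result, the KI libraries at 48 h were also less far along the first principal component, which holds 70.6% of the variance and parts naive from activated libraries. They lay at 49.5 to 61.8 on it and wt libraries at 74.7 to 88.9. The KO-labelled library of experiment 1 lay at 55.5, within the KI range, with Il2rg at 484 CPM. Summed B cell markers were 70.7 to 154 CPM in KI and 27.3 to 94.4 CPM in wt libraries at 48 h. Of the 4 B cell markers 0 were called by edgeR between KI and wt at 48 h. Summed NK cell markers were 62.7 to 181 CPM in KI and 108 to 127 CPM in wt libraries, almost all of it Eomes, which activated CD8+ T cells also express. The defining NK receptor genes were near 0, Ncr1 at 0.412 CPM or less and Klrb1c at 0.536 CPM or less in each KI and wt library at 48 h. Summed CD8 T cell, CD4 T cell and myeloid markers overlapped between KI and wt. Summed regulatory T cell markers (Foxp3 and Ikzf4) did not overlap, at 32.7 to 41.6 CPM in KI and 27.7 to 32.3 CPM in wt libraries. Of these 2 markers 0 were called by edgeR. Summed stromal markers did not overlap either, at 146 to 196 CPM in KI and 86.4 to 92.2 CPM in wt libraries. That sum was almost all Pecam1, which naive T cells also express, and which was called higher in KI (log2 0.96, SE 0.14, edgeR adjusted p = 0.0009). The other stromal markers, Col1a1 and Pdgfra, did not exceed 1.03 and 0.0593 CPM in any library. The part of these measures in the Il2rg difference was not tested.

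**Figure D2:**
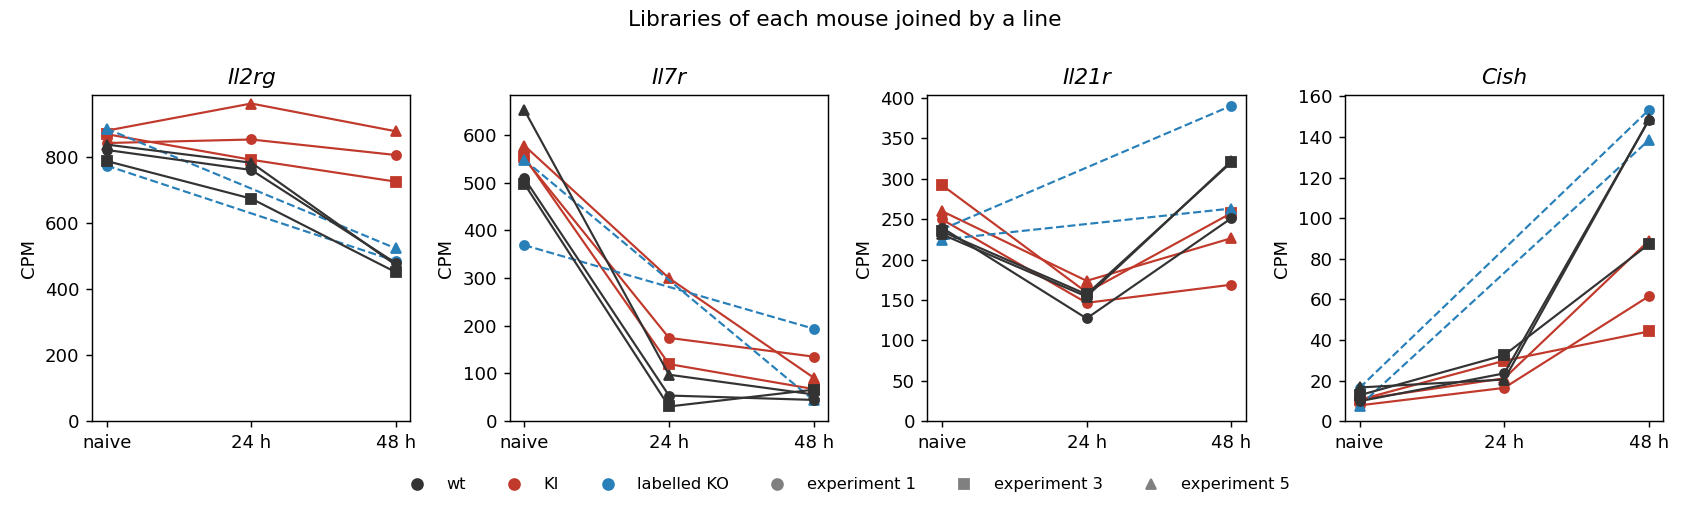
Level of Il2rg, Il7r, Il21r and Cish in CPM on linear axes from 0, with the libraries of each mouse joined by a line and KO-labelled mice, which lack a 24 h library here, dashed. Il2rg ended at 725 to 877 CPM in KI mice and at 450 to 522 CPM in all others, Il7r stood higher in the 3 KI than in the 3 wt mice at 24 h (not called by edgeR), and Cish at 48 h was 44.2 to 88.9 CPM in KI and 87.2 to 149 CPM in wt mice.

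On the length-scaled FPKM, Il2rg was the highest of the 10 genes in each of the 8 groups and Socs2 the lowest. Among the 3 chains of the IL-2 receptor, Il2ra held 0.172% to 0.240% of the summed FPKM in naive wt libraries and 15.3% to 18.6% at 48 h. In KI libraries at 48 h its share was 8.31% to 11.7%, below each wt library and below the 16.9% and 17.7% of the KO-labelled pair. The share of Il2rg was 61.0% to 66.2% in KI and 40.8% to 49.6% in wt libraries at 48 h. For each unit of Il2ra there were 5.50 to 7.97 units of Il2rg in KI libraries at 48 h and 2.20 to 2.80 in wt libraries, so the balance of the chains did not overlap between the genotypes. The level of Il2rg is uncertain because Gm20489, with 60.9% to 67.9% of its count, overlaps it, so the sizes of these shares and ratios are uncertain too. They add no independent evidence to the difference in Il2rg, which they contain.

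**Figure D3:**
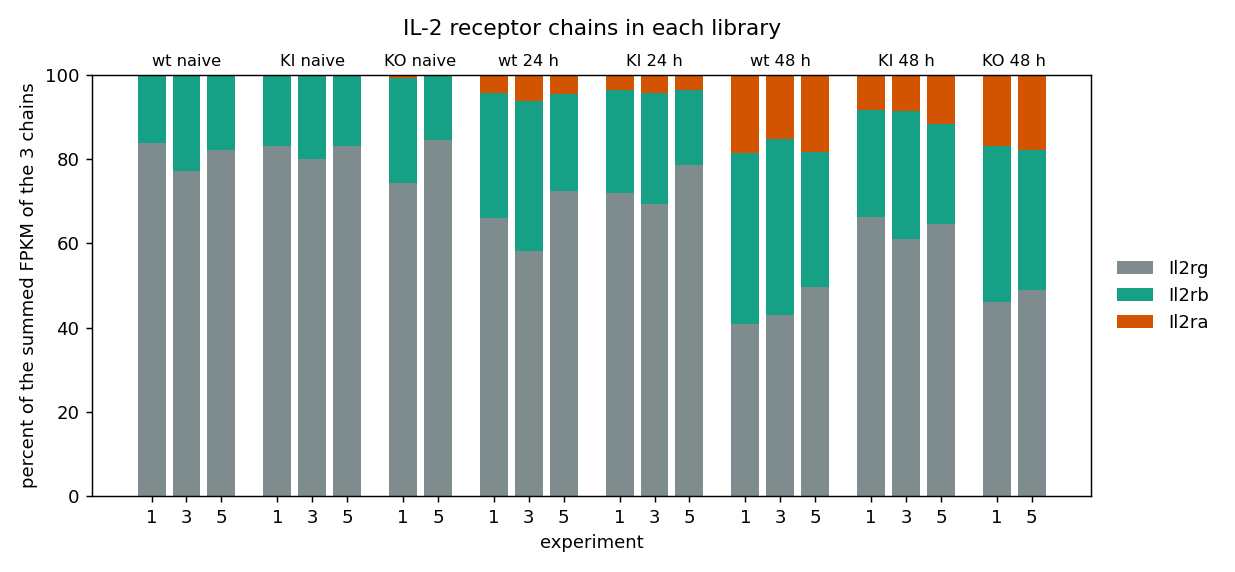
Share of each IL-2 receptor chain in the summed FPKM of Il2ra, Il2rb and Il2rg, in percent, with 1 bar per library and the experiment number under it. At 48 h Il2ra made up 15.3% to 18.6% in wt and 8.31% to 11.7% in KI libraries. All shares are uncertain in size because Gm20489 overlaps Il2rg.

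Il7r (chr15:9505788-9530176, minus strand), the IL-7 receptor alpha chain that is high on naive T cells, showed the largest fall of the receptor chains. It was at 509, 498 and 652 CPM in naive wt libraries, 53.7, 30.8 and 97.4 CPM at 24 h, and 44.6, 65.9 and 56.0 CPM at 48 h. The wt level at 24 h was 9.12-fold below naive (log2 -3.19, SE 0.48, edgeR adjusted p = 2.7e-05) and at 48 h 9.97-fold below (log2 -3.32, edgeR adjusted p = 1.3e-05), and 24 h and 48 h overlapped. In KI cells the level was 551, 553 and 578 CPM naive, 175, 120 and 300 CPM at 24 h, and 135, 67.3 and 91.2 CPM at 48 h. The KI fall at 24 h was 2.83-fold (log2 -1.50, edgeR adjusted p = 0.013, or 0.087 and 0.12 without the KI mouse of experiment 1 or 3) and -2.52 on the log2 scale at 48 h (edgeR adjusted p = 0.00022).

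All KI libraries lay above all wt libraries for Il7r at both activated times, though not in naive cells. At 24 h the within-experiment differences were 1.70, 1.96 and 1.62 on the log2 scale, the widest KI to wt gap of the 10 genes at that time. The fitted difference was 1.71 (SE 0.45), with an unadjusted p of 0.0014 that did not hold after edgeR's adjustment over all genes (adjusted p = 0.38), while DESeq2 called it (1.66, adjusted p = 0.042). At 48 h the differences were 1.60, 0.03 and 0.70, and the fitted value was 0.82 (edgeR adjusted p = 0.36). The difference in response to 24 h was 1.69 (SE 0.63, edgeR adjusted p = 1). KI libraries at 24 h lay at 14.4 to 35.5 on the first principal component and wt libraries at 30.5 to 66.0, and the part of that order in the Il7r values was not tested. In KO-labelled cells Il7r went from 369 and 548 CPM to 194 and 43.6 CPM, the value at 48 h of 194 coming from the mouse that stands apart. With only that mouse kept, KO exceeded wt at 48 h by 1.80 (edgeR adjusted p = 0.01), against 1.10 with both (adjusted p = 0.70), and the fall of -1.95 within KO (adjusted p = 0.0089) became -0.93 (adjusted p = 0.25).

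Il4ra (chr7:125552120-125579474, plus strand), the chain that pairs with the gamma chain for IL-4, dipped at 24 h. It was at 237, 250 and 219 CPM in naive wt libraries, 116, 152 and 140 CPM at 24 h, and 172, 167 and 215 CPM at 48 h. The wt fall at 24 h was -0.79 (SE 0.17, edgeR adjusted p = 0.00098), and at 48 h the difference from naive was -0.35 (edgeR adjusted p = 0.089, or 0.045 with mouse as a block). The KI levels were 257, 284 and 217 CPM, 148, 214 and 180 CPM, and 188, 215 and 240 CPM at the 3 times. Their fall at 24 h was -0.48 (edgeR adjusted p = 0.033), a call lost without any 1 KI mouse (adjusted p 0.069 to 0.26). KI and wt overlapped at each time, with differences of 0.10, 0.41 and 0.22 (SE 0.17 each). KO-labelled libraries were at 263 and 183 CPM naive, then 229 and 173 CPM at 48 h. An antisense model, Gm44876, overlaps Il4ra, and whether counting used strand is not given in the sources used here.

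Il21r (chr7:125603429-125633570, plus strand), the ligand-binding chain for IL-21, also dipped at 24 h, from 239, 235 and 231 CPM to 127, 157 and 154 CPM in wt libraries. At 48 h it had risen again to 251, 320 and 322 CPM, above naive in each of the 3 wt mice. The wt steps were -0.69 from naive to 24 h (SE 0.16, edgeR adjusted p = 0.0016) and 1.03 from 24 h to 48 h (edgeR adjusted p = 0.00087), and the difference between 48 h and naive was 0.34 (adjusted p = 0.074, or 0.041 with mouse as a block). KI libraries were at 250, 292 and 260 CPM naive, 146, 159 and 174 CPM at 24 h, and 169, 257 and 226 CPM at 48 h. The level at 48 h was below naive in each of the 3 KI mice, a difference not called in the main edgeR fit. The dip of KI libraries at 24 h was -0.74 (edgeR adjusted p = 0.0011) and the step back 0.44 (adjusted p = 0.15). At 48 h the within-experiment differences of KI from wt were -0.57, -0.31 and -0.51, with a fitted value of -0.45 (SE 0.16, edgeR adjusted p = 0.12). The direct test of the response to 48 h gave -0.64 (SE 0.22, edgeR adjusted p = 0.30). KO-labelled libraries went from 237 and 225 CPM to 390 and 263 CPM, a rise of 0.50 (edgeR adjusted p = 0.043) that was 0.23 without the mouse of experiment 1 (adjusted p = 0.48) and was called in 3 of 9 alternative settings.

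Cish (chr9:107296026-107302784, plus strand), which encodes CIS, a STAT5-induced inhibitor of IL-2 receptor signalling, rose late. In wt libraries it was at 9.84, 12.8 and 16.6 CPM naive, 23.5, 32.5 and 20.5 CPM at 24 h, and 148, 87.2 and 149 CPM at 48 h. The gain was 0.97 on the log2 scale at 24 h (SE 0.31, edgeR adjusted p = 0.016, or 0.11 and 0.14 without the wt mouse of experiment 1 or 3). It was 3.29 at 48 h, or 9.80-fold (SE 0.34, edgeR adjusted p = 2e-07), with most of the step, 2.33, after 24 h (adjusted p = 0.00049). KI libraries rose from 7.78, 10.5 and 10.7 CPM to 16.4, 29.8 and 21.1 CPM at 24 h and 61.5, 44.2 and 88.9 CPM at 48 h. Their gain was 1.21 at 24 h (edgeR adjusted p = 0.0051, or 0.055 without the KI mouse of experiment 3) and 2.75 at 48 h (adjusted p = 2.1e-06). The step of 1.53 between 24 h and 48 h (edgeR adjusted p = 0.013) lost its call without the KI mouse of experiment 1 (1.39, adjusted p = 0.18) or 5 (1.18, adjusted p = 0.42).

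Each KI mouse was below the wt mouse of its experiment for Cish at 48 h, by -1.27, -0.98 and -0.74 on the log2 scale, although the highest KI value, 88.9 CPM, just passed the lowest wt value, 87.2 CPM. The fitted difference was -0.98 (SE 0.31) and missed the threshold (edgeR adjusted p = 0.084, or 0.092 with experiment as a block). DESeq2 called it (-1.01, adjusted p = 0.028), and so did edgeR without the wt mouse of experiment 3 (-1.19, adjusted p = 0.042). The difference in response from naive cells was -0.55 (SE 0.44, edgeR adjusted p = 0.77). KO-labelled libraries reached 153 and 138 CPM at 48 h, from 16.4 and 7.59 CPM, a gain of 3.60 (edgeR adjusted p = 2e-06). A pair of models on the other strand, Gm17041 and Gm17040, overlap Cish with counts of 26.0% to 35.2% and 6.44% to 10.2% of its own, so its level is uncertain. They were singled out after their values were seen.

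Socs2 (chr10:95385362-95417180, minus strand), whose product limits growth hormone and other JAK-STAT signals, behaved much like Cish in time but at a far lower level. It was at 0.567, 0.549 and 1.38 CPM in naive wt libraries, 1.23, 1.55 and 1.78 CPM at 24 h, and 22.9, 7.46 and 15.4 CPM at 48 h. The wt libraries at 48 h lay above all earlier wt libraries but were widely spread. The gain was 0.88 at 24 h (SE 0.65, edgeR adjusted p = 0.27) and 4.20 at 48 h, or 18.4-fold (SE 0.70, edgeR adjusted p = 6e-05), and the step of 3.32 after 24 h (adjusted p = 0.0052) had an adjusted p of 0.15 without the wt mouse of experiment 1. KI libraries were at 0.222, 0.766 and 0.591 CPM, 0.683, 1.59 and 1.36 CPM, and 7.21, 3.75 and 9.86 CPM, a gain of 3.71 at 48 h (edgeR adjusted p = 0.00025). The KI step of 2.51 after 24 h (adjusted p = 0.044) was not called without any 1 KI mouse (adjusted p 0.12 to 0.54) or with experiment as a block (0.051). KI was below wt at 48 h within each experiment, by -1.66, -0.99 and -0.64, with overlapping groups and a fitted difference of -1.14 (SE 0.61, edgeR adjusted p = 0.35). In KO-labelled cells the naive levels were 2.26 and 0.335 CPM, and 4.05 and 15.2 CPM were reached at 48 h. Their gain of 2.89 (edgeR adjusted p = 0.0074) was 0.84 when only the mouse of experiment 1 was kept (adjusted p = 0.45).

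Socs1 (chr16:10782240-10785536, minus strand), a direct inhibitor of JAK kinases, rose modestly. It was at 14.4, 15 and 19 CPM in naive wt libraries, 24.3, 27.0 and 33.4 CPM at 24 h, and 37.7, 18.9 and 54.2 CPM at 48 h, where the lowest library lay among the naive ones. The gain was 0.81 at 24 h (SE 0.31, edgeR adjusted p = 0.041) and 1.19 at 48 h, or 2.29-fold (edgeR adjusted p = 0.0037). The call at 24 h was lost without any 1 wt mouse (adjusted p 0.076 to 0.14), with upper-quartile scaling (0.095) and with library size alone (0.058), so that 5 of 10 alternative settings kept it. In KI libraries Socs1 was at 14.1, 20.1 and 22.8 CPM, 24.8, 34.7 and 38.8 CPM, and 42.9, 36.3 and 59.8 CPM. They rose by 0.79 at 24 h (edgeR adjusted p = 0.055, or 0.0088 with experiment as a block) and by 1.28 at 48 h (adjusted p = 0.0026). KI and wt overlapped at each time, with differences of 0.24, 0.21 and 0.33 (SE 0.31 each). KO-labelled libraries went from 13.1 and 17.3 CPM to 20.4 and 37.8 CPM, by 0.94 (edgeR adjusted p = 0.056, or 0.013 with experiment as a block).

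Socs3 (chr11:117966079-117970047, minus strand), which inhibits receptors that signal through gp130 and related chains, moved the other way from the remaining SOCS genes. It was at 162, 144 and 132 CPM in naive wt libraries, 29.9, 25.8 and 56.5 CPM at 24 h, and 26.1, 24.9 and 44.3 CPM at 48 h. The wt fall was -1.96 at 24 h (SE 0.33, edgeR adjusted p = 0.0001) and -2.20 at 48 h, or 4.59-fold (edgeR adjusted p = 2.4e-05). In KI libraries Socs3 was at 228, 212 and 186 CPM naive, all above the naive wt libraries, and at 55.7, 68.3 and 80.8 CPM and 44.8, 37.0 and 49.5 CPM later. They fell by -1.61 at 24 h (edgeR adjusted p = 0.0008) and -2.25 at 48 h (adjusted p = 2.6e-05). In each of the 3 experiments the KI mouse was higher than its wt partner at all 3 times, by 0.16 to 1.40 on the log2 scale. These are 3 pairs of mice, whose libraries at different times are not independent. The share of all genes with this pattern was not computed. The fitted differences of 0.52, 0.87 and 0.46 (SE 0.32 to 0.33) did not pass the test at any time (edgeR adjusted p = 1, 0.46 and 0.50). KO-labelled libraries fell from 122 and 168 CPM to 68.5 and 23.4 CPM, by -1.66 (edgeR adjusted p = 0.0029), or by -0.84 when only the mouse of experiment 1 was kept (adjusted p = 0.15). With that mouse alone KO exceeded wt at 48 h by 1.11 (adjusted p = 0.027), against 0.53 with both (adjusted p = 0.79).

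In FPKM the balance of the feedback genes turned over with activation. Naive wt libraries held 17.6 to 36.5 units of Socs3 for each unit of Cish, whereas wt libraries at 48 h held 0.390 to 0.662. In KI libraries the same ratio went from 38.7 to 65.0 naive to 1.24 to 1.86 at 48 h, above 1 in all 3 as deposited. In KO-labelled libraries it was 16.6 and 49.2 naive, then 0.992 and 0.375 at 48 h. The level of Cish is uncertain because gene models overlap it. Whether a value close to 1 lies above or below 1 therefore depends on how reads were assigned. This ratio was formed after the values were seen and carries no test.

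**Figure D4:**
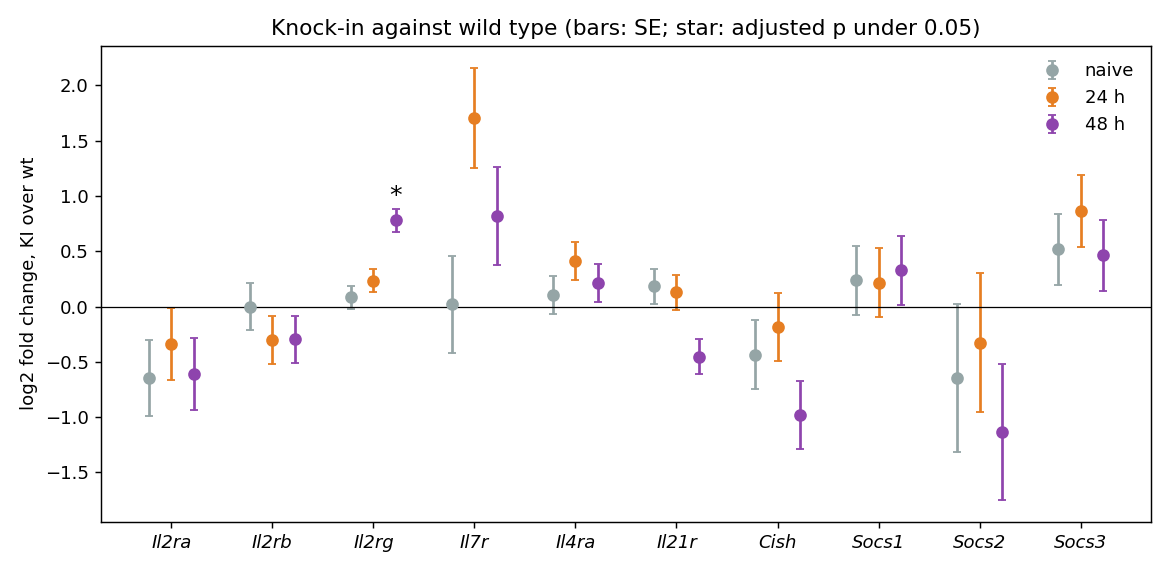
Fitted log2 fold change of KI over wt for each gene in naive cells and at 24 h and 48 h, with bars for the standard error and a star for an edgeR adjusted p under 0.05. Il2rg at 48 h, at 0.78, is the value that passed, and the value for Il7r at 24 h, 1.71, lies farthest from 0 with an SE of 0.45.

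Across the KI to wt comparisons few of the 10 genes passed the test. In naive cells 0 were called by edgeR, 0 had an unadjusted p under 0.05 and DESeq2 called 0, where edgeR called 0.0803% of all genes. At 24 h edgeR called 0, 4 had an unadjusted p under 0.05 and DESeq2 called 1, Il7r, where edgeR called 0.00472% of all genes. For the response to 24 h edgeR called 0 members and 0% of all genes, 1 member, Il7r, had an unadjusted p under 0.05 and DESeq2 called 0. Of the 21183 genes tested, 440 had an unadjusted edgeR p under 0.05 in naive cells, 1909 at 24 h and 692 for the response to 24 h. KI and wt libraries did not overlap for 4 members naive (Il2rg, Il21r and Socs3 higher, Il2ra lower), beside 10.6% of all genes. They did not overlap for 3 at 24 h (Il2rg and Il7r higher, Il2ra lower), beside 20.5%, and for the same 3 at 48 h, beside 20.9%.

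KO-labelled and wt cells differed for 0 of the 10 genes by edgeR in naive cells (0.0236% of all genes) and for 0 at 48 h (0.0283%), with 1 member at an unadjusted p under 0.05 each time and 0 called by DESeq2. The libraries did not overlap for Il2rg alone at 48 h, where KO was higher by 0.11 (SE 0.12), beside 9.22% of all genes. The response to 48 h gave 0 calls (0% of all genes), with 1 at an unadjusted p under 0.05 and 0 by DESeq2. Of the 21183 genes tested, 285 had an unadjusted edgeR p under 0.05 in naive cells, 1463 at 48 h and 496 for the response. Il2ra in naive cells was higher by 1.82 when only the KO mouse of experiment 1 was kept (edgeR adjusted p = 0.019), against 1.14 with both mice (adjusted p = 1). With that mouse alone the response of Il2ra differed by -1.87 (adjusted p = 0.022), against -1.15 with both (adjusted p = 1).

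The genes of the cytokines themselves gave few counts. Of 6 common-gamma cytokine genes 4 passed the filter, and Il7 and Il9 did not. Il2 rose from 0.0403 ± 0.0491 CPM (SD, n = 3) in naive wt cells to 0.865 ± 0.403 at 24 h and 3.38 ± 3.45 at 48 h (log2 6.38, edgeR adjusted p = 0.00015), and was at 5.74 ± 5.66 CPM in KI cells at 48 h. Il15 and Il21 were at 0.501 CPM or less on average in wt cells and were not called at 24 h or 48 h. Among 4 further receptor chains, Il15ra, which presents IL-15, rose from 12.1 ± 1.52 to 28.1 ± 2.32 CPM in wt cells by 48 h (log2 1.22, edgeR adjusted p = 5.5e-06). Il13ra1 fell from 1.68 ± 0.252 to 0.183 ± 0.123 CPM (log2 -3.19, adjusted p = 0.00017) and Il9r from 5.45 ± 2.30 to 1.34 ± 1.07 CPM (log2 -2.03, adjusted p = 0.026). In wt cells 1 of these 4 chains was higher and 1 lower at 24 h (all genes: 26.3% and 22%) and 1 was higher and 2 lower at 48 h (29.6% and 26.8%), and KI and wt differed by edgeR in 0 cytokine or further chain genes at 24 h and 48 h.

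Of 7 JAK and STAT genes 2 rose and 2 fell in wt cells at 24 h, and 2 rose and 1 fell at 48 h, beside the share of all genes (26.3% higher and 22% lower at 24 h, 29.6% and 26.8% at 48 h). Stat5a, the factor downstream of IL-2 and IL-7, rose from 75.0 ± 3.69 to 191 ± 9.44 CPM (log2 1.35, edgeR adjusted p = 9.7e-09), and Stat3 from 227 ± 10.4 to 585 ± 189 CPM (log2 1.37, adjusted p = 7e-05). Jak1 fell by -1.34 (adjusted p = 2.5e-05). Stat5a differed between KI and wt at 48 h by -0.33 (edgeR adjusted p = 0.09). Of 10 other inhibitors, among them the phosphatases Ptpn1 and Ptpn2, 0 rose and 4 fell at 24 h and 3 rose and 4 fell at 48 h in wt cells, beside the same shares of all genes. Ptpn2 rose by 0.83 (adjusted p = 0.00041), Ptpn1 by 0.59 (adjusted p = 0.00043) and Pias1 fell by -0.48 (adjusted p = 0.0033). None of the 10 was called between KI and wt by edgeR at 24 h or 48 h.

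Of 14 genes known to respond to IL-2 or STAT5, 5 rose and 4 fell in wt cells at 24 h (all genes: 26.3% and 22%), and 7 rose and 2 fell at 48 h (29.6% and 26.8%). The kinase gene Pim2 went from 97.7 ± 2.85 to 416 ± 117 CPM by 48 h (log2 2.09, edgeR adjusted p = 9.1e-09), the costimulatory receptor gene Tnfrsf4 rose by 3.98 (adjusted p = 2e-08) and the survival gene Bcl2l1 by 3.53 (adjusted p = 4.7e-08). Between KI and wt at 48 h 0 of the 14 were called higher and 2 lower, beside 2.29% and 1.91% of all genes. These were Pim2, at 262 ± 37.6 CPM in KI cells (log2 -0.67, SE 0.16, edgeR adjusted p = 0.024), and Osm, which encodes oncostatin M, at 12.1 ± 2.13 CPM in KI and 21.6 ± 7.12 CPM in wt cells (log2 -0.84, SE 0.23, adjusted p = 0.045). The median difference of the 14 was -0.42, beside 0.00 over all genes tested.

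Of 6 genes known to regulate Il7r, 1 rose and 4 fell in wt cells at both 24 h and 48 h, where 26.3% and 29.6% of all genes rose and 22% and 26.8% fell. Klf2, a factor of quiescent T cells, fell from 440 ± 31.5 to 16.6 ± 3.70 CPM by 48 h (log2 -4.73, edgeR adjusted p = 1.8e-09), Foxo1, an activator of Il7r, fell by -1.23 (adjusted p = 1.2e-07) and Ets1 by -1.22 (adjusted p = 1.2e-05). Klf2 was the 1 gene of the 6 called between KI and wt at 48 h, beside 4.2% of all genes tested. It was at 49.6 ± 5.00 CPM in KI cells (log2 1.58, SE 0.29, edgeR adjusted p = 0.0051). At 24 h its difference was 1.48 (adjusted p = 0.19), and Foxo1 differed by 0.29 (adjusted p = 0.50).

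For each of the 10 genes the most similar profiles over the 22 libraries were found by Pearson's r of log2 CPM, as a description, since all libraries share the activation time course. Il2rg was closest to its overlapping model Gm20489 (r = 0.99) and to Cxcr6 (r = 0.97), Cish to its overlapping models Gm17041 (r = 1.00) and Gm17040 (r = 0.99), and Socs2 to Gm17041 (r = 0.95) and Cish (r = 0.94). Il7r was closest to Peli1 (r = 0.98) and Taf8 (r = 0.98), Socs3 to H2-Q4 (r = 0.98) and B430306N03Rik (r = 0.98), and Il2ra to Eea1 and Ptms (r = 0.99 each). Il2rb was closest to Jcad (r = 0.96) and Ptpn9 (r = 0.95), Il4ra to Ciart (r = 0.88) and Csrnp1 (r = 0.81), Il21r to Ggta1 (r = 0.92) and Diaph1 (r = 0.89), and Socs1 to Eif4e2 (r = 0.93) and Mrfap1 (r = 0.92).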

How the data were processed

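RNA of 22 libraries was sequenced as paired ends from stranded poly(A) libraries, per the labels' protocols. Per the submitters' processing notes, bcl2fastq 2.20.0, TopHat2 2.1.0, Bowtie2 2.2.5, SAMtools 0.1.19, featureCounts and DESeq2 1.6.3 were used with builds GRCm38 and mm10. Whether counting used strand is not given in the sources used here, and it affects Il4ra and Cish, which antisense models overlap. The authors deposited whole-number counts for 46603 genes, which were the input to every test. The deposited log2 values equalled log2(normalized count + 1), and the deposited FPKM equalled normalized counts over 1 length per gene; FPKM served only for levels between genes. There were 0 columns of other samples.

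The 10 members, the gene lists and the tests were chosen with earlier results of these data known. Genes were kept by filterByExpr (minimum count 10, minimum total 15), which left 21183. Counts were scaled by TMM, and a model of 8 group means (14 residual degrees of freedom) was fitted with edgeR 4.0.16 in R 4.3.3. Its quasi-likelihood F test gave p-values, adjusted by Benjamini and Hochberg over all genes and called at 0.05, after tests on simulated data. Log2 CPM used a prior count of 2. The p-values of this fit rest on the spread between replicate libraries within groups, pooled over the 8 groups. Libraries of one mouse at different times were treated as independent in it, and mouse as a block was tried as an alternative.

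Named genes were the 10 members, listed genes called between KI and wt at 48 h, the 3 of each list with the smallest p in wt cells at 48 h against naive, and the 2 genes most like each member. The result of 1 gene that this rule names is not reported here. The labels name the shared mouse and experiment, so libraries are paired. Deviations from group means correlated with a median r of 0.22 in 9 KI and wt pairs of one experiment, 8 of them over 0.1, and -0.18 in 18 pairs across experiments. For each gene the deviations in a group sum to 0, so positive values within experiments bring negative ones across them. The -0.18 is therefore not a separate baseline. Between libraries of the same mouse at different times the median r was 0.15 in 18 pairs, 17 of them over 0.1. Replicate libraries were not duplicates (chi-square over its degrees of freedom was at least 15.4). Alternatives were DESeq2 1.42.0, upper-quartile scaling, library size alone, no filter on low counts, only the groups compared, experiment or mouse as a block, leaving out each mouse and, chosen after seeing the data, summed counts of overlapping genes. Positions are those of the deposited tables on GRCm38, identical to GENCODE M21 for all 10 genes.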

Additional observations from a re-analysis of the deposited data

Results flagged for a closer look

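Of the results on these 10 genes, 2 were picked out for the response to activation in KI and wt mice: 1 passed a direct test of the difference, and in 1 the mice of the genotypes moved in opposite directions. The change of Il2rg from naive to 48 h differed between KI and wt by 0.70 on the log2 scale in a direct test (SE 0.15, edgeR adjusted p = 0.043), with wt mice changing by -0.83 to -0.78 and KI mice by -0.26 to 0.00. That call was kept in 7 of 14 alternative settings and was lost without any 1 of the 6 mice and without the filter on low counts. The change of Il21r over the same interval was above 0 in each of 3 wt mice (0.07 to 0.48) and below 0 in each of 3 KI mice (-0.56 to -0.18). The direct test of that difference gave -0.64 (SE 0.22) and did not pass (edgeR adjusted p = 0.30). Neither the wt nor the KI change of Il21r from naive to 48 h was called in the main edgeR fit. Il21r was picked out by this pattern itself, and the share of all genes that show it was not computed.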

How the results depend on the processing

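Of 180 alternative counts of members called, over 15 comparisons, 159 stayed within 1.5 times the value reported, where 0 staying at 0 was included. The other 21 moved, in 11 of the comparisons. Leaving out 1 mouse at a time gave 5 to 7 members called in wt cells at 24 h against naive (8 with all mice), 2 to 5 for wt 48 h against 24 h (5), 3 to 5 for KI 24 h against naive (6), and 0 to 1 for KI 48 h against 24 h (3). It gave 4 to 7 for KO 48 h against naive (8), 1 to 2 for KI against wt at 48 h (1), 0 to 1 for KO against wt naive (0), 0 to 2 for KO against wt at 48 h (0), 0 to 0 for the KI response to 48 h (1) and 0 to 1 for the KO response (0). In these fits a group left with 1 library is assumed to vary like the others. Fitting only the groups compared gave 2 members for KO 48 h against naive, where each group has 2 libraries. DESeq2 called 1 member for KI against wt at 24 h and 2 at 48 h. Testing without the filter on low counts gave 0 for the KI response to 48 h.

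Near-zero differences changed sign. For Il2rb between naive KI and wt cells (-0.0017) the value was 0.0012 with experiment as a replicate block, and -0.12 to 0.17 when a mouse was left out. For Il7r in the same comparison (0.02) leaving out a mouse gave -0.051 to 0.15, and for Cish at 24 h (-0.19) it gave -0.44 to 0.027. Further call changes under the block are given beside the gene. Il2rg, Cish and Il4ra are limited by overlapping gene models, Socs2 by counts as low as 15, and the KO comparisons by 2 mice, of which 1 stands apart.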
